A study of Canis lupus familiaris with 36 samples.

Results

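The miRNAs cfa-miR-146a, cfa-miR-146b and cfa-miR-155, whose transcription responds to NF-κB, were followed through the heart libraries of dogs with visceral hemangiosarcoma (HSA), a malignant tumor of endothelial cells. They were picked by name from the deposited table, where they are 3 of 453 mature miRNAs and each has 1 entry. Small RNA had been sequenced from formalin-fixed, paraffin-embedded (FFPE) heart tissue of 6 dogs with cardiac HSA and of 6 control dogs that had died of non-neoplastic causes. The labels of each library give tissue and condition and no other trait of the dog, and 24 spleen libraries of the same series were not analysed here. According to the paper, HSA dogs of the series were significantly older than control dogs, and earlier chemotherapy excluded no dog. Age and earlier treatment cannot be told apart from the condition here. For every heart library the title and the treatment field of the labels name opposite conditions. Both fields make the same division into 6 and 6, the title was followed, and every direction given below rests on the titles.

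NF-κB is a transcription factor that Toll-like receptors, interleukin-1 receptors and tumor necrosis factor switch on. MiR-146a and miR-146b are products of separate genes, share their seed and repress the adaptors IRAK1 and TRAF6, which carry the signal from those receptors to NF-κB, so that they act as a brake on the pathway that induces them. MiR-155, cut from the transcript once called BIC, is induced in activated macrophages and lymphocytes, where it represses the inhibitors SOCS1 and SHIP1 and prolongs the response. In endothelium, the miR-146 pair is known to restrain the adhesion molecules induced by inflammatory cytokines. In the RefSeq gene table of the assembly UU_Cfam_GSD_1.0, which is another build than that of the files and was used for names only, MIR146A lies next to PTTG1, MIR146B lies inside the lncRNA LOC106557960 beside CUEDC2, and MIR155 lies next to MRPL39.

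The libraries held from 2018959 to 8999025 counts in HSA (median 4233661) and from 6999830 to 11668822 in control (median 9049880.5). No library had fewer than 234 counts of any of the 3 miRNAs, which were thus far from the limit of detection. The levels below are CPM, the counts of a miRNA per 1000000 counts of its library, after TMM normalization, which scales the libraries so that most miRNAs keep their level. Whole tissue was extracted, so more cells of a type and more of a miRNA per cell cannot be told apart. The summed leukocyte miRNAs (miR-142, miR-150, miR-223 and miR-342) lay between 510 and 3033 CPM in the tumors, above the controls with 286 to 411 CPM. The summed muscle miRNAs (7 miRNAs, among them miR-1, miR-133a and miR-499) ranged widely in HSA, from 687 to 161535 CPM, and little in control, from 127045 to 187517 CPM, with miR-208a at 0 counts in 4 HSA libraries and miR-208b in 1. Epithelial miRNAs were highest in HSA replicate 5, at 3285 CPM against at most 544 CPM in the other HSA libraries, and liver miRNAs in HSA replicate 3, at 216640 CPM against at most 4016 CPM.

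All 3 miRNAs were higher in cardiac HSA than in control heart. The rise was 6.17-fold for miR-146a, 6.77-fold for miR-146b and 4.82-fold for miR-155. The pair of miR-146 genes showed no overlap between the groups, while miR-155 overlapped in 2 of the 6 tumors after TMM and in none with the deposited CPM. Of the 225 tested miRNAs, 15.1% had all tumors above all controls after TMM and 24.0% with the deposited CPM. MiR-155 was highest in HSA replicate 4 and miR-146b in replicate 1, while miR-146a was highest in replicate 4 after TMM and in replicate 2 with the deposited CPM (TMM factor 1.97).

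MiR-146a, the more abundant member of the pair, was measured at 722, 1944, 2191, 2777, 847 and 414 CPM in HSA replicates 1 to 6. In control replicates 1 to 6 it was at 352, 222, 231, 194, 183 and 259 CPM. The lowest tumor, replicate 6, was above the highest control, and replicates 2, 3 and 4 stood above the other tumors. The tumors averaged 1483 ± 950 CPM (SD, n = 6) and the controls 240 ± 61.3 CPM (SD, n = 6). The log2 fold change was 2.63 with a standard error of 0.43 (adjusted p = 0.00112, edgeR's quasi-likelihood test).

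MiR-146b, which has the same seed, was at 1579, 650, 510, 404, 154 and 520 CPM in HSA replicates 1 to 6. The control replicates 1 to 6 had 103, 97.6, 76.8, 86.3, 97.5 and 103 CPM. Here replicate 1 was the highest tumor and replicate 5 the lowest, and the controls kept within a narrow range, with a coefficient of variation of 11.0% against 77.2% in HSA. The tumors averaged 636 ± 491 CPM (SD, n = 6) and the controls 93.9 ± 10.3 CPM (SD, n = 6). On the log2 scale the rise was 2.76 with a standard error of 0.44 (adjusted p = 0.000965, edgeR's quasi-likelihood test).

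MiR-155, the lymphoid and myeloid activation miRNA, was at 105, 593, 369, 1251, 153 and 97.4 CPM in HSA replicates 1 to 6. The control replicates 1 to 6 had 111, 58.8, 103, 59.4, 112 and 89.2 CPM. Replicates 2, 3, 4 and 5 of HSA lay above every control, whereas replicates 1 and 6 fell inside the control range. This depended on the scaling, since with the deposited CPM those tumors had 99.8 and 79.61 CPM and the highest control 77.32 CPM, and all 6 tumors were also above all controls when scaled to miR-8859a and miR-8859b. That scaling summed the counts of both, so miR-8859a dominated it, with 2018 to 12334 counts against 143 to 467 of miR-8859b. After TMM, miR-8859a itself had a log2 fold change of -0.29. The tumors averaged 428 ± 446 CPM (SD, n = 6) and the controls 88.9 ± 24.5 CPM (SD, n = 6). The log2 fold change of 2.27 had a standard error of 0.61 (adjusted p = 0.00915, edgeR's quasi-likelihood test). This adjusted p was close to the threshold of 0.01. Leaving out HSA replicate 2, 3 or 4 or any single control ended the call, at an adjusted p of up to 0.0436, and without HSA replicate 4 the log2 fold change was 1.36.

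**Figure D1:**
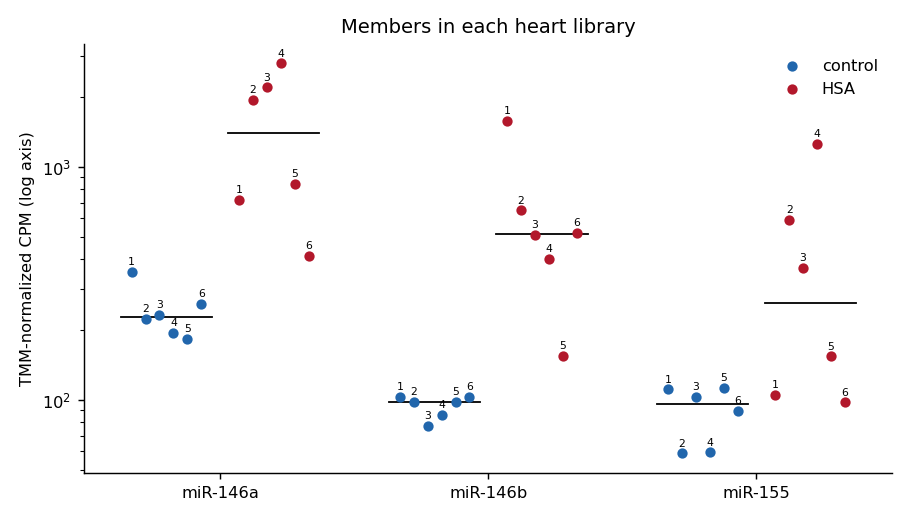
TMM-normalized CPM (log axis) of miR-146a, miR-146b and miR-155 in each heart library; each point is 1 library with its replicate number, blue for control and red for HSA, and the black lines are group medians. All 6 HSA points of miR-146a (414 to 2777 CPM) and miR-146b (154 to 1579 CPM) are above the controls, while HSA replicates 1 and 6 of miR-155 lie among them on this scale, though not with the deposited CPM (99.8 and 79.61 against at most 77.32 CPM).

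The study's thresholds, an adjusted p below 0.01 with a change of 1 or more on the log2 scale in either direction, decided the calls. All 3 were called higher, against a background of 18.7% of the 225 mature miRNAs tested (42 of 225). With no overlap between the groups, miR-146a and miR-146b belonged to the 15.1% of tested miRNAs (34 of 225) with all 6 HSA values above all 6 control values. With the deposited CPM, all 3 members belonged to such a set, which then held 24.0% of the tested miRNAs (54 of 225), and scaled to miR-8859a and miR-8859b it held 21.3% (48 of 225), again with all 3. Among the 42 miRNAs called higher, miR-146b had rank 18, miR-146a rank 19 and miR-155 rank 24 by the size of the rise. Over all 225 tested miRNAs the median change was 0.34 on the log2 scale, and relative to it the values were 2.29 for miR-146a, 2.42 for miR-146b and 1.93 for miR-155. Scaled by library size only, where that median was 0.97, they were 2.32, 2.37 and 1.99. The TMM split of 42 higher and 16 lower calls became 68 and 5 by library size only, 50 and 3 when scaled to miR-8859a and miR-8859b (the study's qPCR reference miRNAs), and 53 and 5 with limma on the deposited CPM (56 and 6 with a pseudocount of 0.1). The members had positive log2 fold changes under each of these and were called, except miR-155 with limma (adjusted p = 0.0142 and 0.0135). The study had chosen the reference miRNAs from its own sequencing data for little change between groups.

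In the ranking of all 453 mature miRNAs by mean level, miR-146a stood at 80 in control and at 52 in HSA. MiR-146b moved from 106 to 65 and miR-155 from 107 to 78. The order within the trio was thus miR-146a, miR-146b and miR-155 in both groups. In control, miR-146a exceeded miR-146b in 6 of 6 libraries, while miR-146b and miR-155 differed by less than their spread, with a log2 ratio of miR-155 to miR-146b of -0.12 ± 0.45 (SD, n = 6). In HSA the same ratio was -0.88 ± 1.97 (SD, n = 6), so that no order of these neighbors held. Counts of different miRNAs also depend on how well each is ligated and aligned, and reads of the closely related miR-146a and miR-146b may have been assigned to either, neither of which was measured.

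Ratios within a library need no scaling factor and show whether the members rose by unequal amounts. The log2 ratio of miR-146b to miR-146a was 1.13, -1.58, -2.10, -2.78, -2.46 and 0.33 in HSA replicates 1 to 6. In control replicates 1 to 6 it was -1.78, -1.18, -1.59, -1.17, -0.91 and -1.33. Thus replicates 1 and 6 lay above all controls, replicates 3, 4 and 5 lay below them, and only replicate 2 fell within their range. In replicate 1 there were 2.18 counts of miR-146b for each of miR-146a and in replicate 6 there were 1.26, a dominance of miR-146b that no control showed. Replicates 1 and 6 were also the tumors with the most muscle miRNA, 130291 and 161535 CPM, both inside the control range, and the part of tissue makeup in this ratio was not tested.

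Since the HSA values lay on both sides, the mean of that ratio was nearly the same in HSA, -1.24 ± 1.60 (SD, n = 6), and control, -1.33 ± 0.31 (SD, n = 6). The difference of 0.08 was not significant in an exact permutation test (two-sided, adjusted p = 0.900 over 3 ratios), and leaving out HSA replicate 1, HSA replicate 6 or control replicate 1 made it -0.39, -0.23 or -0.01. MiR-155 relative to miR-146a averaged -2.13 ± 0.61 (SD, n = 6) in HSA and -1.45 ± 0.44 (SD, n = 6) in control on the log2 scale. It was below every control in 4 of 6 tumors (replicates 1, 3, 5 and 6), but the difference of -0.68 did not pass the exact permutation test (two-sided, p = 0.0519, adjusted p = 0.156). Without HSA replicate 4, the tumor with the most miR-155, the difference was -0.87 and did pass (exact permutation test, adjusted p = 0.0325). MiR-155 relative to miR-146b differed by -0.76 (exact permutation test, two-sided, adjusted p = 0.571), over HSA values from -3.91 to 1.63. The smallest p that 6 against 6 libraries allow is 0.00216.

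Among the tumors, the levels of miR-155 lay in nearly the same order as those of miR-146a, and those of miR-146b did not. Over the 6 HSA libraries, log2 levels of miR-146a and miR-155 gave Pearson's r of 0.935 (p = 0.0181, two-sided exact permutation test) and Spearman's rho of 0.943 (p = 0.0167, same test), and r was 0.942 without replicates 4 and 6, the farthest from the median of miR-146a. Neither passed correction over the 24 coefficients computed (adjusted p = 0.189 for both, exact permutation test). In the 6 control libraries r was 0.361 (exact permutation test, two-sided, p = 0.485, adjusted p = 0.831) and rho 0.029 (exact permutation test, p = 1.00, adjusted p = 1.00), and r was 0.692 without replicates 1 and 5. MiR-146a and miR-146b had an r of -0.09 in HSA (exact permutation test, two-sided, p = 0.868, adjusted p = 1.00) and a rho of -0.43 (exact permutation test, p = 0.419, adjusted p = 0.831), with an r of -0.03 without replicates 4 and 6. All libraries share their scaling factors between the miRNAs compared. With the deposited CPM, r of miR-146a and miR-146b in HSA was 0.200.

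**Figure D2:**
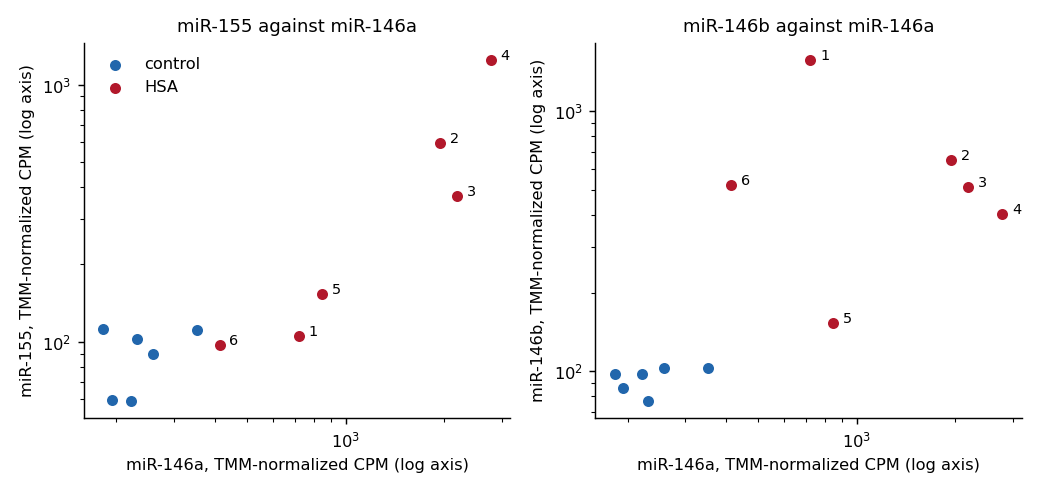
MiR-155 (left) and miR-146b (right) against miR-146a in TMM-normalized CPM, both axes logarithmic; each point is 1 library, blue for control and red for HSA, with the HSA replicate number beside it. In HSA, miR-155 climbs with miR-146a from replicate 6 to replicate 4 (r = 0.935), while miR-146b is highest in replicate 1 and shows no such order (r = -0.09).

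The levels were set beside miRNAs typical of blood leukocytes. MiR-142, found in all hematopoietic cells, miR-223, typical of myeloid cells, and miR-150, typical of mature lymphocytes, were called higher in HSA, 3 of the 4 list members against 18.7% of all tested miRNAs, and miR-342 was not (log2 fold change -0.44, adjusted p = 0.170, edgeR). No library was at 0 for any of the 4. The summed leukocyte miRNAs had 510, 3033, 1883, 2249, 719 and 809 CPM in HSA replicates 1 to 6, so the tumors rich in miR-146a and miR-155, replicates 2, 3 and 4, were also the richest in leukocyte miRNAs. Over the 6 HSA libraries, the leukocyte sum had an r of 0.896 with miR-155 (exact permutation test, two-sided, p = 0.0417, adjusted p = 0.250; rho 0.771, p = 0.103, adjusted p = 0.352). Its r was 0.843 with miR-146a (exact permutation test, p = 0.0806, adjusted p = 0.322; rho 0.657, p = 0.175, adjusted p = 0.525) and -0.10 with miR-146b (exact permutation test, p = 0.844, adjusted p = 1.00; rho -0.09, p = 0.919, adjusted p = 1.00). Without replicates 1 and 2 these r were 0.913, 0.912 and 0.520. In the 6 control libraries the r of the sum with miR-146a was 0.876 (exact permutation test, p = 0.0236, adjusted p = 0.189; rho 0.829, p = 0.0583, adjusted p = 0.280), and 0.388 without replicates 1 and 5, so it rests on those libraries. With miR-155 the sum had an r of only 0.145 in control (exact permutation test, p = 0.781) and a rho of -0.03. With miR-146b its r in control was 0.357 (exact permutation test, p = 0.474, adjusted p = 0.831) and its rho 0.543.

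The ratios to the leukocyte sum and to miR-126 were added after the values had been seen. Relative to the leukocyte sum of the same library, no member passed the test between the groups, with adjustment over 6 ratios that also took in miR-126. The log2 ratio was 0.46 higher in HSA for miR-146a (exact permutation test, two-sided, adjusted p = 0.146), from -0.97 to 0.50 in HSA and from -0.81 to -0.22 in control. Without HSA replicate 6 that difference was 0.65 and passed (exact permutation test, adjusted p = 0.0325). For miR-146b it was 0.54 higher (exact permutation test, adjusted p = 0.561) and -0.04 without HSA replicate 1, where the ratio was 1.63. For miR-155 it was -0.22 (exact permutation test, adjusted p = 0.561), with 4 of 6 tumors inside the control range. Such a p does not show that the members kept pace with the leukocyte miRNAs.

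**Figure D3:**
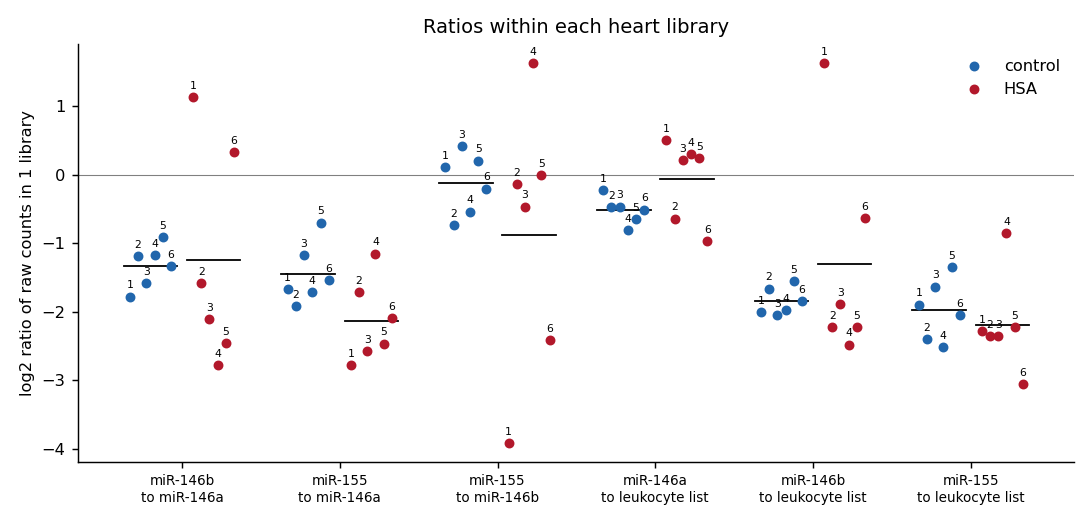
Log2 ratios of raw counts within each library, between the members (left) and of each member to the summed leukocyte miRNAs (right); each point is 1 library with its replicate number, blue for control and red for HSA, and the black lines are group means. The ratio of miR-146b to miR-146a spans -2.78 to 1.13 in HSA and -1.78 to -0.91 in control, with group means that nearly coincide.

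MiR-126, the miRNA most closely tied to endothelial cells, was not called, at 2176 ± 1443 CPM (SD, n = 6) in the tumors against 2972 ± 649 CPM (SD, n = 6) in the controls (log2 fold change -0.45, adjusted p = 0.328, edgeR). The others of the endothelial list were higher in HSA. MiR-221 was called, with a log2 fold change of 1.11 (adjusted p = 0.00384, edgeR). MiR-222 was not called, as its log2 fold change of 0.95 was below 1 (adjusted p = 0.00271, edgeR). No ratio to either was computed. Relative to miR-126, miR-146b was higher in HSA by 3.11 on the log2 scale (exact permutation test, two-sided, adjusted p = 0.0130) and above every control in 6 of 6 tumors. MiR-146a was higher by 3.03 (exact permutation test, adjusted p = 0.0130) and above every control in 5 of 6, all but replicate 6; this was no longer significant without control replicate 3 or 5 (exact permutation test, adjusted p = 0.0519 in both). For miR-155 the difference of 2.35 did not pass (exact permutation test, adjusted p = 0.0866), and it did without HSA replicate 1 or 6 (exact permutation test, adjusted p = 0.0173 and 0.0216). Since miR-126 itself did not rise, these ratios largely restate the rise of the members and are no separate support for it. With the other marker lists, 1 of 3 endothelial, 1 of 2 erythroid, 0 of 8 muscle, 2 of 7 epithelial (3 tested) and 3 of 3 liver miRNAs were called higher and none was called lower, against 18.7% higher and 7.11% lower of all tested miRNAs, and their part in the rise of the members was not tested. The log2 fold changes of miR-146a, miR-146b and miR-155 were 2.48, 2.81 and 2.31 without HSA replicate 3, the liver-rich library, and 2.73, 2.96 and 2.43 without HSA replicate 5, the epithelial-rich one. That of miR-155 was not called without replicate 3 (adjusted p = 0.0138, edgeR).

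Other miRNAs linked to Toll-like receptor and NF-κB signaling did not move as a block. Of a list of 17, 15 were tested, 5 were called higher, 1 was called lower and 9 were not called. The background was 18.7% called higher and 7.11% called lower (16 of 225), and the median log2 fold change of the list was 0.52 against 0.34 for all tested miRNAs. Those called higher were miR-223, which dampens IKKα and the NLRP3 inflammasome (log2 fold change 3.58), miR-21, which NF-κB and AP-1 induce (3.23), miR-10a, which restrains NF-κB in endothelium (3.09), and miR-212 (2.54) and miR-132 (2.53), which CREB induces and which were added to the list as responsive to Toll-like receptors. MiR-125b, a repressor of tumor necrosis factor, was the one called lower, at 9786 ± 4455 CPM (SD, n = 6) in HSA against 32921 ± 3341 CPM (SD, n = 6) in control. Its log2 fold change was -1.75 with a standard error of 0.28 (adjusted p = 0.000965, edgeR).

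Among the 9 that were not called were miRNAs known to restrain NF-κB in endothelium. MiR-181b, which blocks nuclear import of NF-κB, was at 470 ± 133 CPM (SD, n = 6) in the tumors against 453 ± 26.5 CPM (SD, n = 6) in the controls, and its log2 fold change of 0.05 had a standard error of 0.18 (adjusted p = 0.814, edgeR). The values of miR-181a, miR-16 and miR-199, the last a repressor of IKKβ, were -0.06, -0.08 and -0.08. MiR-15a had a log2 fold change of 0.52 and miR-9, a repressor of NFKB1, one of 0.61. MiR-17 at 1.34 (adjusted p = 0.0404, edgeR) and miR-31, a repressor of E-selectin, at -1.16 (adjusted p = 0.0487, edgeR) missed the threshold. The values of miR-17 came from at most 77 counts in a library, and those of miR-212, which was called, from 8 to 32 counts in the control libraries. MiR-147 and miR-187 were not tested, since neither had a read in any control library and 3 of the 6 HSA libraries also had none; the other HSA libraries had at most 7 and at most 296 counts.

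**Figure D4:**
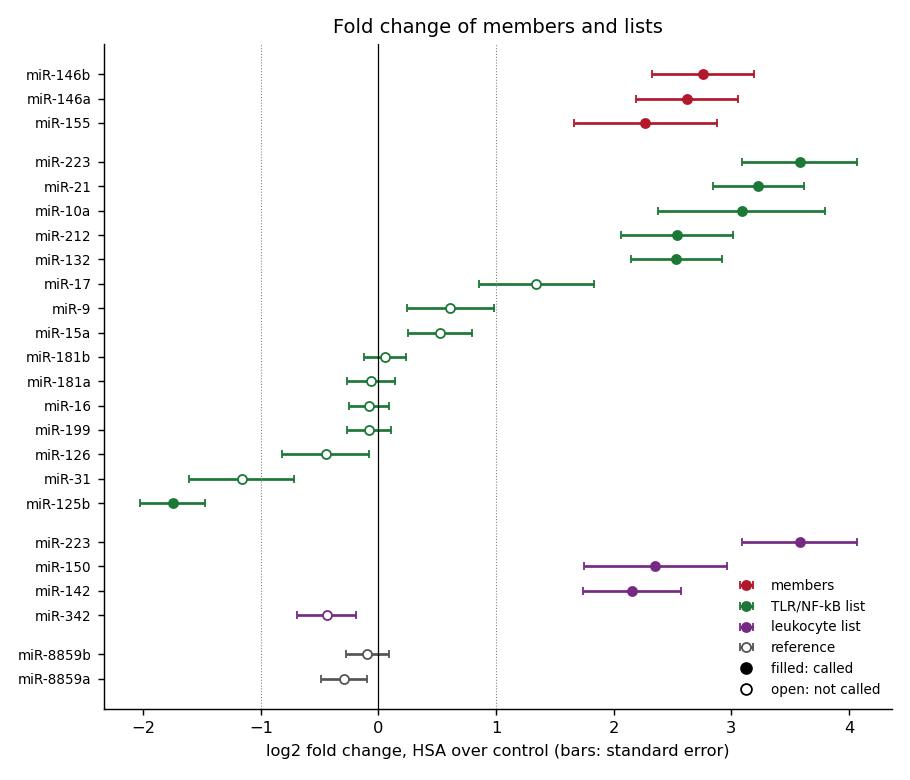
Log2 fold change of HSA over control with its standard error (bars) from edgeR for the 3 members, the tested miRNAs of the Toll-like receptor and NF-κB list, the leukocyte list and the reference miRNAs; filled points were called, open points were not, and dotted lines mark -1 and 1. The members lie between 2.27 and 2.76, the Toll-like receptor and NF-κB list spreads from -1.75 to 3.58, and the reference miRNAs lie at -0.10 and -0.29. The study had chosen the reference miRNAs for little change in its sequencing data, so their small change here is no separate result.

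The miRNAs most like each member were ranked by the Pearson r of log2 CPM over the 12 heart libraries after the mean of each group had been subtracted, among the other 224 tested miRNAs. This is a description, since the libraries share their scaling factors and the HSA libraries carry most of the variation. MiR-146a was most like miR-502 (r = 0.980), miR-500 (r = 0.916) and miR-155 (r = 0.887). MiR-502 was at 239 ± 87.2 CPM (SD, n = 6) in the tumors against 114 ± 11.2 CPM (SD, n = 6) in the controls, and its log2 fold change was 1.06 with a standard error of 0.24 (adjusted p = 0.00456, edgeR). MiR-155 was most like miR-146a, then miR-150 (r = 0.864) and miR-502 (r = 0.851). MiR-146b was most like miR-184 (r = 0.763), miR-19a (r = 0.733) and miR-208a (r = 0.715), the last being at 0 counts in 4 HSA libraries and at most 56 in any. MiR-184 was at 126 ± 241 CPM (SD, n = 6) in HSA, so its likeness and that of miR-208a may rest on few libraries. Its own sister miR-146a came at rank 113 of 224 for miR-146b, with an r of -0.07, near the median of -0.07.

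The choice of settings separated the pair from miR-155. Over the 12 alternative fits with every library and without a replicate block, and over the 12 fits that each left out a library, the calls of miR-146a and miR-146b held, with adjusted p of at most 0.00469 and 0.00387. MiR-155 held its call in 5 of the former 12 and in 3 of the latter 12. Its log2 fold change ran from 2.17 to 2.97 with every library and from 1.36 to 2.48 with a library left out. With every library, its adjusted p ran from 0.00108 with DESeq2 to 0.0142 with limma.

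**Figure D5:**
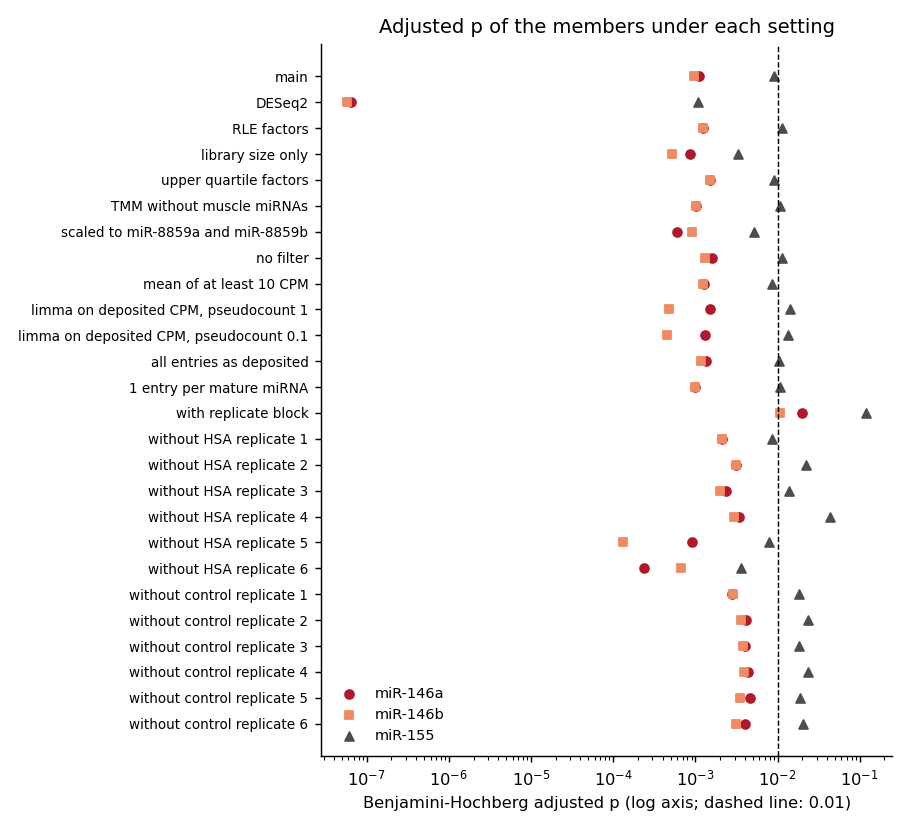
Benjamini-Hochberg adjusted p (log axis) of the 3 members under each fit, from the one reported at the top to the fits that leave out 1 library each; the dashed line is the threshold of 0.01. The points of miR-146a and miR-146b pass the line only with the replicate number as a term, while those of miR-155 scatter around it, from 0.00108 to 0.121.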

How the data were processed

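Small RNA libraries of FFPE heart tissue were compared between 6 HSA and 6 control dogs, grouped by title. For these libraries the methods name the NEXTflex kit and the labels the QIAseq kit; the methods were followed. The authors removed adapters (Cutadapt), mapped reads to the CanFam3.1 genome (Bowtie) and counted them over miRBase miRNAs (HTSeq), and they deposited raw counts per mature miRNA and precursor. They also deposited the same counts as CPM, which recomputing matched to within 0.00499 CPM. Depth is the total count after 43 of 517 entries, identical in name and counts, had been merged. Of several entries of 1 mature miRNA, the one with the most counts gave its value.

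Counts were fitted in R 4.3.3 with edgeR 4.0.16 (quasi-likelihood F test, TMM, default filter on low counts, 225 mature miRNAs tested), with Benjamini-Hochberg adjustment over all tested entries. The study used DESeq2, run here (1.42.0) as an alternative, as was limma 3.58.1 on log2 of the CPM plus 1 or 0.1. Standard errors were the fold change (log2) divided by √F. Ratios used raw counts and exact permutation tests (924 arrangements, threshold 0.05 after adjustment). Correlations were computed within groups, in Python 3.11.15. The list sum for muscle left out miR-133c, whose counts equal those of miR-133a.

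The members, lists and tests were chosen with earlier results of these data known. MiRNAs named are the members, those of the lists, the reference miRNAs and, for each member, the 3 most like it. Replicate numbers do not pair dogs. The deviations of same-numbered libraries from their group means had correlations from -0.28 to 0.04. The spleen libraries and qPCR values were not analysed here.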

Additional observations from a re-analysis of the deposited data

Results flagged for a closer look

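Values were flagged where the highest or the lowest of the 6 libraries of a group stood apart from the rest by Dixon's criterion (gap over range above 0.625), which chance alone meets in about 1 of 20 groups of normally distributed values. Levels were examined as CPM and not on the log2 scale, so that share may not hold for them. Of 38 groups of values examined, 6 were flagged. MiR-146b in HSA replicate 1, at 1579 CPM, was above the other HSA libraries, which ran from 154 to 650 CPM; with the deposited CPM its gap over range was 0.228, below that criterion. The log2 ratio of miR-155 to the leukocyte sum was -0.85 in HSA replicate 4 and from -3.05 to -2.23 in the other HSA libraries. The log2 ratio of miR-146b to miR-126 was -5.78 in control replicate 3 and from -4.92 to -4.68 in the other controls. In the same control library, the endothelial list summed to 4958 CPM, against 3247 to 3836 CPM in the others. The epithelial list summed to 3285 CPM in HSA replicate 5, against 43.2 to 544 CPM in the other HSA libraries. The liver list summed to 216640 CPM in HSA replicate 3, against 339 to 4016 CPM in the others.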

How the results depend on the processing

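MiR-155 lost its call, with its direction kept, under median-of-ratios factors (log2 fold change 2.22, adjusted p = 0.0113 from edgeR), TMM without the muscle miRNAs (2.17, 0.0108), no filter on low counts (2.23, 0.0112), limma with a pseudocount of 1 (2.28, 0.0142) or 0.1 (2.30, 0.0135), all entries as deposited (2.31, 0.0103) and 1 entry per mature miRNA (2.20, 0.0108); the cause was not tested. With a library left out it ran from 1.36 to 2.48. The number of miRNAs called stayed within 1.5 times the 58 reported in all alternatives with every library and no replicate term (53 to 74, and 76 at an adjusted p under 0.05), and ran from 24 to 65 with a library left out, at 24 without control replicate 5, 25 without 1, 26 without 4, 29 without 2, and 38 without control replicate 6 or HSA replicate 4. With the replicate number as a block, although the numbers pair no dogs, 6 miRNAs were called, and the log2 fold changes were 2.37 for miR-146a, 2.45 for miR-146b and 1.60 for miR-155 (adjusted p = 0.0197, 0.0106 and 0.121 from edgeR), none of them called. Under a paired sign-flip, the ratios of miR-146a and miR-146b to miR-126 had an adjusted p of 0.0938 (exact permutation test). The smallest p this test allows before adjustment is 0.03125, so it cannot show whether these ratios weakened.

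The difference in the log2 ratio of miR-146b to miR-146a was -0.58 between medians instead of means, and ran from -0.39 to 0.39 with a library left out. That of miR-155 to miR-146a ran from -0.87 to -0.53 and that of miR-146b to the leukocyte sum from -0.042 to 0.78. With the deposited CPM, chosen after the data were seen, r turned to 0.200 for miR-146a with miR-146b, 0.134 for miR-146b with miR-155 and 0.217 for the leukocyte sum with miR-146b in HSA, and to -0.056 for miR-146b with miR-155 in control. After TMM, r of miR-146b with miR-155 was -0.149 in HSA and 0.099 in control. All of these r were weak, and after TMM their p ran from 0.806 to 0.893 (exact permutation test), so the change of sign carries no weight. The counts of the members, 234 or more in each library, set no limit here, whereas 6 dogs a group do. The labels give no sequencing batch, and a batch that followed the condition cannot be told apart from it.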
